A study of Mus musculus with 60 samples.

Results

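A set of activity-induced genes downstream of neuronal firing was followed across the mouse dentate gyrus (DG), the hippocampal field that receives most cortical input. They are *Npas4*, *Arc*, *Homer1*, *Nptx2*, *Ptgs2*, *Plk2*, *Ier2*, *Rgs2*, *Sik1* and *Pim1*, and they were taken as a named list of 10 of the 46480 genes in the RNA-seq tables, outside the AP-1, Egr and Nr4a families of transcription factors. RNA came from dorsal or ventral DG of male C57BL6J mice aged 80 days that had been weaned on day 22 into standard housing (SH, 3 mice per cage) or an enriched environment (EE, 12 mice per cage). Each library pooled tissue punches of several mice. Per the study, both regions were sampled from the same mice, and libraries of a housing with the same number were taken as one pool. The titles give the number alone. On that reading the 4 groups came from 9 pools, 4 of SH and 5 of EE mice, each giving one dorsal and one ventral library. The labels name no transgene or drug, and housing and region are the only differences they give.

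When a neuron fires, calcium entry switches on a first wave of genes within minutes through transcription factors such as CREB and SRF that are already bound near their promoters. Some of these genes encode further transcription factors, and others encode proteins that act directly at the synapse or on signalling. In the DG, granule cells fire sparsely, and *Arc* and *Npas4* are widely used to mark the few cells that were recently active. *Npas4* encodes a transcription factor that responds to calcium with little response to growth factors. *Arc* encodes a protein that trims AMPA receptors from synapses, *Homer1* a postsynaptic scaffold, and *Nptx2* a secreted pentraxin that gathers AMPA receptors. *Ptgs2* encodes cyclooxygenase-2, *Plk2* a polo-like kinase that weakens synapses after strong activity, *Sik1* a salt-inducible kinase that restrains CREB coactivators, and *Pim1* a constitutively active serine/threonine kinase. *Rgs2* encodes a protein that shortens G-protein signalling, and *Ier2* a small immediate-early nuclear protein.

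CREB binds the cAMP response element (CRE), so the promoters of the list are shown with the core of that element, the motif TGACG read on either strand and called the CRE core here, in capitals. RefSeq promoter windows on GRCm38.p6 (250 bases before to 50 bases after each transcription start) were at hand for 6 of the 10 genes. *Arc*, *Nptx2*, *Ier2* and *Sik1* had no entry in that table. The 4 below hold CRE cores upstream of the start, and *Plk2*, *Rgs2* and *Homer1* were chosen for this after their matches were seen. For *Npas4* only the 30 bases around its sites are given, since Gencode draws that window as 5′ UTR. The *Homer1* window is the first of the 2 that RefSeq gives.
Npas4, chr19:4990129-4990158, minus strand: ccgttcgaCGTCAcgggaTGACGtcggaag
Plk2, chr13:110394794-110395043, plus strand: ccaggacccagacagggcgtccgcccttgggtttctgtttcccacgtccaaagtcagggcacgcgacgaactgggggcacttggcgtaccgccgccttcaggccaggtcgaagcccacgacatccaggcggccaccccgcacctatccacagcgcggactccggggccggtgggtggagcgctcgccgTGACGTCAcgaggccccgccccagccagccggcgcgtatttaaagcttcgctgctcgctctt
Rgs2, chr1:144004200-144004399, minus strand: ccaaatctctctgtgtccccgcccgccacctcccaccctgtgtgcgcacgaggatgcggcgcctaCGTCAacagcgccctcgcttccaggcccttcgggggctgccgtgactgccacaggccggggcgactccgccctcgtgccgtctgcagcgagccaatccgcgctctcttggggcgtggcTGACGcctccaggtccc
Homer1, chr13:93303507-93303756, plus strand: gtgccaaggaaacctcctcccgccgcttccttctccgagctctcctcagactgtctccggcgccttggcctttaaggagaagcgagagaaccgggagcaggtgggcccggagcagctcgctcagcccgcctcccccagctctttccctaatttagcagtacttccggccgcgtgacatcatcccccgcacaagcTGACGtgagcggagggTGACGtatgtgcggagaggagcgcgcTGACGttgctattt

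The *Npas4* CRE cores begin 179 and 169 bases before its start, and those of *Rgs2* begin 185 and 67 bases before. *Homer1* has 3, at 56, 40 and 14 bases before its start. *Plk2* carries the full palindrome TGACGTCA 62 bases before its start, which holds a CRE core on each strand, and another core 21 bases after it. In *Ptgs2* the single CRE core lies 13 bases after the start. At least 1 CRE core was thus present for 5 of the 6 genes (5 of their 8 windows), where 20.8% of all 32851 promoter windows held one. The full element was in 1 of the 6 genes and in 1.79% of all windows. The CArG box bound by SRF was found in none of the 6 genes and in 1.63% of all windows. These matches describe letters in a window and were not tested for binding.

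Between 22919364 and 28301861 fragments per library were counted on genes (median 25816352). The tissue label was checked against marker genes: all 5 granule cell markers (*Prox1*, *C1ql2*, *Dsp*, *Calb1*, *Dgat2*) were detected in every library, with summed levels of 470 to 1128 CPM (counts scaled to the library size). The markers of CA pyramidal cells, habenula and thalamus, choroid plexus, interneurons, astrocytes, microglia, oligodendrocytes, endothelium and blood were also detected in every library, so the punches were mixed tissue. A pair of libraries, SH replicate 3 of dorsal and ventral DG, held 34.3 and 11.9 CPM of *Xist*, the RNA of the inactive X chromosome, where the other 18 held 0 to 0.652 CPM. They were left out of every value unless stated, because the study left out an SH sample for *Xist*. The calls for the 10 genes were the same with them.

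All 10 genes passed the filter of more than 10 counts in at least 2 libraries. Compared per length, on the TPM scale, *Plk2* was the most abundant transcript (mean over 18 libraries 27.0 TPM), followed by *Arc* at 19.9 and *Homer1* at 19.0. *Plk2* exceeded *Arc* in 17 of 18 libraries, whereas *Arc* exceeded *Homer1* in 10 of 18. The order of *Arc* and *Homer1* went with region, and *Arc* was the higher in every dorsal library. In ventral DG *Arc* was the higher only in EE replicate 2 (15.2 against 12.9 TPM). *Rgs2* (7.65 TPM), *Ptgs2* (4.65 TPM) and *Nptx2* (3.31 TPM) formed the middle of the list, with *Rgs2* above *Ptgs2* in 18 and *Ptgs2* above *Nptx2* in 15 libraries. *Sik1* (1.16 TPM) and *Ier2* (1.11 TPM) had indistinct ranks, with *Sik1* higher in 8 of 18. *Npas4* (0.497 TPM) and *Pim1* (0.371 TPM) were the least abundant, and *Npas4* in ventral SH rested on 22 to 43 fragments per library. *Npas4* was above *Pim1* in every EE library and below it in every ventral SH library. The spread within groups also differed by gene. The SD of log2 CPM within groups was smallest for *Rgs2* (0.06) and largest for *Ier2* (0.24), with *Npas4* at 0.21.

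**Figure D1:**
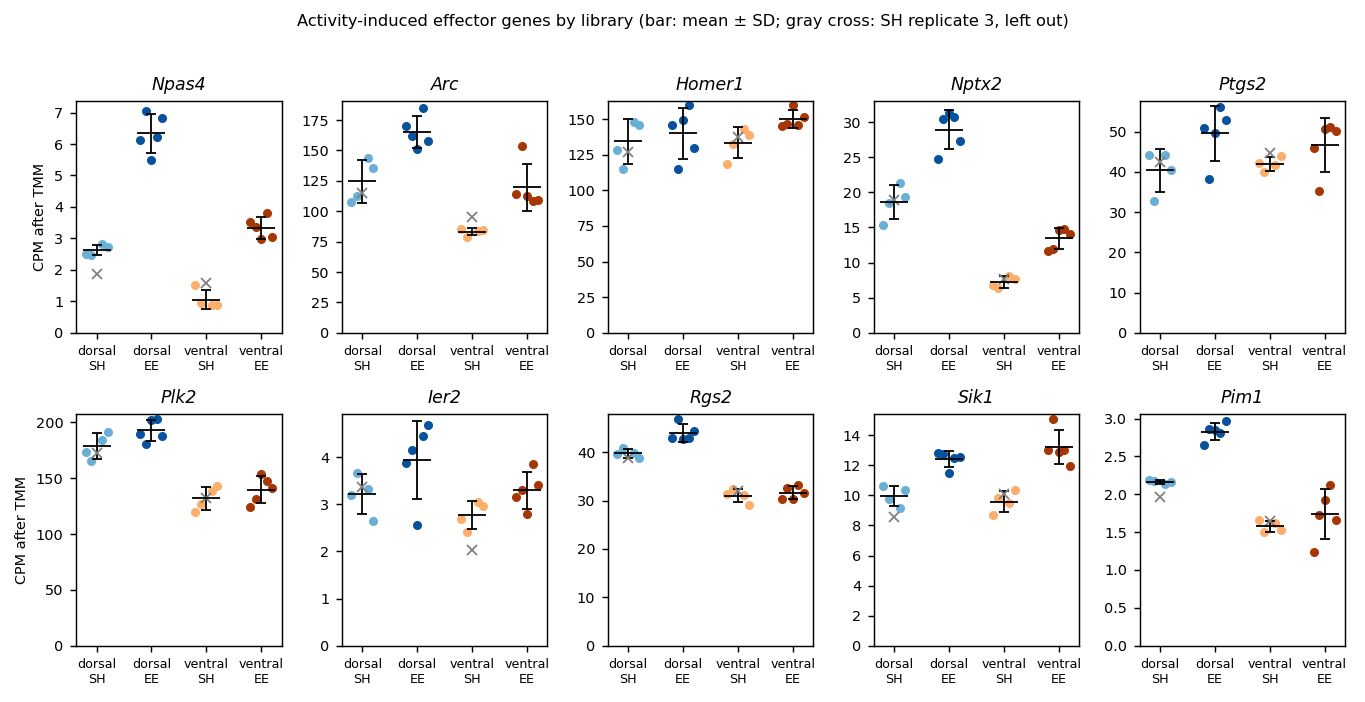
Level of each gene in each library, in CPM after TMM normalization (vertical axes from 0), for the 4 groups. Points are libraries in order of replicate number, bars give the mean ± SD, and gray crosses mark SH replicate 3. *Npas4* in EE (5.49 to 7.04 dorsal, 2.98 to 3.82 ventral) stands clear of SH in both regions, whereas *Homer1* and *Plk2* overlap between housings in dorsal DG.

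Does enrichment raise these genes, and do so in both poles? In dorsal DG, *Npas4*, *Nptx2*, *Arc* and *Sik1* were higher in EE than in SH with a false discovery rate (FDR) below 0.05 and a change of 20% or more, by the quasi-likelihood test of edgeR with Benjamini-Hochberg adjustment over 17040 genes. The same 4 genes rose in ventral DG. None of the 10 fell in either region, where 0.246% (dorsal) and 0.0587% (ventral) of all genes did. Of all genes tested, 0.634% were called in dorsal DG (0.387% upward) and 0.241% in ventral DG (0.182% upward), against 4 of 10 on the list in each. The list was chosen with earlier results of these data known, so its shares beside those of all genes are descriptions and no test. The other 6 genes missed the threshold, with estimates above 0 for all 10 genes in both regions on the CPM scale. On the TPM scale, mean levels in EE were below those in SH for *Homer1*, *Plk2* and *Rgs2* in both regions and for *Pim1* in ventral DG. On that scale the median of 12201 expressed genes itself shifted by -0.26 (log2) in dorsal and -0.15 in ventral DG, and all 10 genes lay above the shift. The median log2 fold change of the 10 was 0.31 in dorsal DG and 0.21 in ventral DG, and over all genes tested it was -0.0034 and -0.00018. In dorsal DG every EE library lay above every SH library for 6 of the 10 genes, a pattern seen for 2.21% of all genes. In ventral DG this held for 5 of the 10 genes and for 1.28% of all genes.

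*Npas4*, at chr19:4984355-4990316 on GRCm38, showed the largest difference of the list. In dorsal SH replicates 1, 2, 4 and 5 it measured 2.51, 2.47, 2.82 and 2.72 CPM, and in dorsal EE replicates 1 to 5 it measured 6.11, 7.04, 5.49, 6.24 and 6.82 CPM. The lowest EE library was thus well above the highest SH library. The fold change was 2.41 (95% interval 2.03 to 2.86; log2 1.27, SE 0.12; edgeR adjusted p = 1.82e-06). In ventral DG the SH libraries measured 1.52, 0.939, 0.891 and 0.877 CPM and the EE libraries 3.53, 3.35, 2.98, 3.82 and 3.04 CPM. One SH library, replicate 1, was high, but it was still below every EE library. The ventral fold change was 3.13 (95% interval 2.53 to 3.88; log2 1.65, SE 0.15; edgeR adjusted p = 3.01e-06). Without SH replicate 1 it was 1.88 on the log2 scale, the largest of the values that each left out one replicate (1.56 to 1.88).

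Of the genes for synaptic proteins, *Nptx2* (chr5:144545902-144557478) had the larger rise. It measured 15.4, 18.5, 21.3 and 19.4 CPM in dorsal SH and 24.8, 30.5, 31.3, 30.7 and 27.3 CPM in dorsal EE. In ventral DG it measured 6.74, 6.35, 8.15 and 7.71 CPM in SH and 11.7, 12.0, 14.6, 14.8 and 14.0 CPM in EE. The housings did not overlap in either region. *Nptx2* rose 1.55-fold in dorsal DG (95% interval 1.36 to 1.77; log2 0.63, SE 0.09; edgeR adjusted p = 0.000643) and 1.86-fold in ventral DG (1.59 to 2.17; log2 0.90, SE 0.11; edgeR adjusted p = 0.000116). Its call, like that of *Npas4*, did not depend on any one replicate (9 of 9 fits without one).

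*Arc* (chr15:74669083-74672570) rose less, from a higher level. Dorsal SH libraries held 107, 112, 144 and 136 CPM and dorsal EE libraries 170, 162, 151, 185 and 158 CPM. The gap between the highest SH and the lowest EE library was small beside the spread within SH. The fold change was 1.33 (95% interval 1.16 to 1.52; log2 0.41, SE 0.09; edgeR adjusted p = 0.0388). This call lay close to the threshold: it was kept in 2 of the 9 fits without one replicate (those without EE replicate 2 or SH replicate 4), with adjusted p values up to 0.197 without SH replicate 1. In ventral DG the SH libraries were tight at 85.1, 78.8, 83.8 and 84.2 CPM, and the EE libraries held 114, 153, 113, 109 and 110 CPM. Here EE replicate 2 stood far above the other 4. The fold change was 1.44 (95% interval 1.26 to 1.65; log2 0.53, SE 0.09; edgeR adjusted p = 0.00993). It was 0.42 on the log2 scale and still called without EE replicate 2, and the call was lost without SH replicate 2 (edgeR adjusted p = 0.0559).

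*Homer1* (chr13:93299635-93405129), the third synaptic gene, gave no call. It measured 129, 115, 148 and 146 CPM in dorsal SH and 146, 115, 150, 160 and 130 CPM in dorsal EE, so the groups overlapped almost fully. The dorsal fold change was 1.04 (95% interval 0.925 to 1.17; edgeR adjusted p = 0.905). In ventral DG the EE libraries (146, 146, 160, 146 and 151 CPM) were all above the SH libraries (119, 133, 143 and 139 CPM). The ventral fold change was 1.12 (95% interval 0.997 to 1.26; edgeR adjusted p = 0.673). The activity-induced product of *Homer1* is a short form, and these counts pool it with the long forms that neurons make constantly, so a change of the short form alone was not measured here.

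Among the enzymes, *Sik1* (chr17:31844250-31855804) was the only one of 4 to rise at the threshold. Dorsal SH libraries measured 10.6, 9.79, 9.14 and 10.4 CPM and dorsal EE libraries 12.9, 12.8, 11.5, 12.5 and 12.6 CPM. Ventral SH libraries measured 8.72, 9.81, 9.48 and 10.3 CPM and ventral EE libraries 13.0, 15.1, 12.9, 13.0 and 12.0 CPM. No EE library fell among the SH libraries in either region. *Sik1* rose 1.24-fold in dorsal DG (95% interval 1.12 to 1.38; log2 0.31, SE 0.07; edgeR adjusted p = 0.0383) and 1.37-fold in ventral DG (1.24 to 1.52; log2 0.46, SE 0.07; edgeR adjusted p = 0.00229). The ventral call held in 9 of 9 fits without one replicate. The dorsal call held in 3 of 9 (those without EE replicate 2, EE replicate 3 or SH replicate 1), with adjusted p values up to 0.180 without SH replicate 4.

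*Pim1*, *Ptgs2* and *Plk2* had positive estimates that did not pass the test. *Pim1* measured 2.19, 2.18, 2.14 and 2.16 CPM in dorsal SH and 2.65, 2.86, 2.85, 2.81 and 2.97 CPM in dorsal EE. Its groups did not overlap, yet with 50 to 85 fragments per library the 1.31-fold difference had a 95% interval of 1.10 to 1.55 and an edgeR adjusted p of 0.185. In ventral DG its libraries overlapped (1.50 to 1.66 CPM in SH, 1.24 to 2.13 CPM in EE), with a fold change of 1.10 (0.908 to 1.33). An antisense gene, *Gm26885*, overlaps *Pim1* over 1173 bases and had 5 to 16 fragments per library. *Ptgs2* measured 44.3, 32.8, 44.2 and 40.4 CPM in dorsal SH and 50.9, 38.2, 49.7, 56.2 and 52.9 CPM in dorsal EE. In both housings the library numbered 2 was the lowest, and it alone made the EE range reach into that of SH. The dorsal fold change of *Ptgs2* was 1.23 (95% interval 1.05 to 1.43; edgeR adjusted p = 0.323). Without EE replicate 2 it was 0.37 on the log2 scale and called (edgeR adjusted p = 0.00896). In ventral DG *Ptgs2* ranged from 39.9 to 44.1 CPM in SH and from 35.3 to 51.2 CPM in EE (fold change 1.11, 95% interval 0.957 to 1.30). *Plk2* ranged from 165 to 192 CPM in dorsal SH and from 181 to 203 CPM in dorsal EE, and its fold change was 1.08 (0.985 to 1.19). In ventral DG it ranged from 120 to 143 CPM in SH and from 124 to 154 CPM in EE (fold change 1.06, 0.964 to 1.16), so a rise of 20% or more lay outside both intervals.

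*Rgs2* and *Ier2* complete the list. *Rgs2* was the least variable gene, at 39.6, 40.9, 39.8 and 38.7 CPM in dorsal SH and 42.9, 46.9, 42.8, 42.8 and 44.3 CPM in dorsal EE. All 5 EE libraries were above all 4 SH libraries, but the difference was small, at 1.11-fold (95% interval 1.04 to 1.18; edgeR adjusted p = 0.191). In ventral DG *Rgs2* ranged from 29.2 to 32.3 CPM in SH and from 30.3 to 33.2 CPM in EE, and the fold change was 1.02 (0.956 to 1.09). *Ier2* measured 3.19, 3.66, 3.33 and 2.64 CPM in dorsal SH and 3.87, 4.14, 2.56, 4.45 and 4.69 CPM in dorsal EE. Replicate 3 was the lowest of all 9 dorsal libraries, and the other 4 EE libraries were above every SH library. The *Ier2* fold change was 1.24 in dorsal DG (1.01 to 1.52; edgeR adjusted p = 0.553) and 1.19 in ventral DG (0.963 to 1.48; edgeR adjusted p = 0.739).

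**Figure D2:**
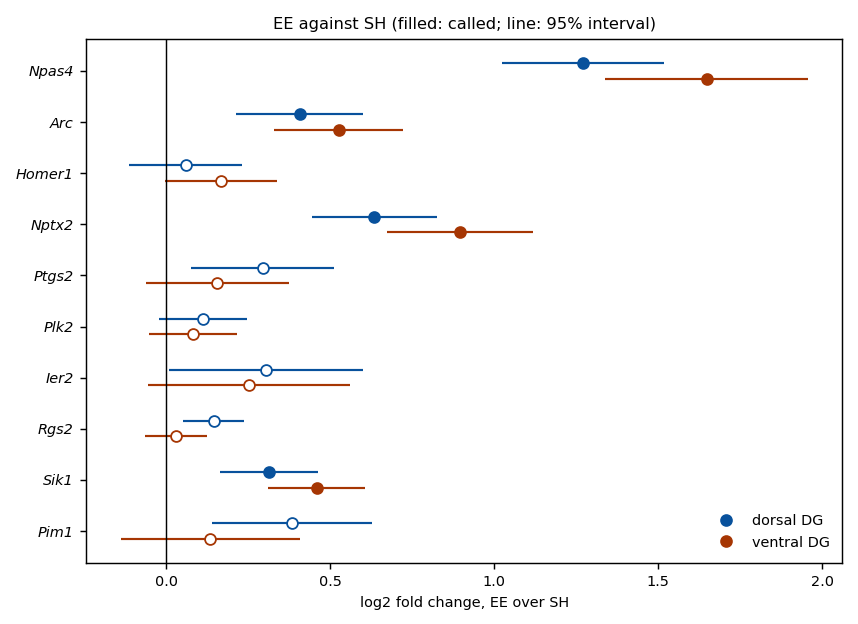
Log2 fold change of EE over SH for each gene in dorsal and ventral DG, with 95% intervals from edgeR. Filled points met both limits (FDR below 0.05, change of 20% or more). *Npas4*, *Arc*, *Nptx2* and *Sik1* are filled in both regions, and all 20 points lie right of 0 on this CPM scale, where on the TPM scale *Homer1*, *Plk2* and *Rgs2* (both regions) and *Pim1* (ventral) fall left of it.

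Whether the EE difference itself differed between the poles was asked with an interaction term. No gene on the list passed at FDR under 0.05, and 0.00587% of all genes did. None of the 10 reached an unadjusted p under 0.05 by edgeR or DESeq2, and 1 (*Npas4*) did by limma. The estimates for the 4 genes that rose in both regions were all on the ventral side. For *Npas4* the dorsal minus ventral difference in log2 fold change was -0.38 (95% interval -0.78 to 0.03; unadjusted p = 0.0668 by edgeR). The value for *Npas4* turned on the SH libraries, at -0.63 without SH replicate 1, -0.27 without SH replicate 4 or 5, and -0.17 when SH replicate 3 was kept. For *Nptx2* the difference was -0.26 (-0.55 to 0.03; unadjusted p = 0.0774). *Arc* (-0.12, 95% interval -0.39 to 0.15; -0.0082 without EE replicate 2) and *Sik1* (-0.15, -0.36 to 0.06) had smaller differences. On the dorsal side, *Rgs2* differed by 0.12 (-0.02 to 0.25) and *Pim1* by 0.25 (-0.12 to 0.62). These intervals do not show that the poles respond alike.

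Dorsal and ventral DG were compared in both housings together. Of the 10 genes, 6 were called, all higher in dorsal DG: *Nptx2*, *Npas4*, *Pim1*, *Arc*, *Plk2* and *Rgs2*. In this comparison 30.9% of all genes were called, 15% toward dorsal and 15.9% toward ventral DG. The 6 genes were higher in the dorsal library of each of the 9 pools, the same libraries that gave the calls. The share of all genes with that pattern was not counted, so it adds nothing to the calls. For *Nptx2*, *Pim1*, *Plk2* and *Rgs2* no ventral library reached the lowest dorsal one, a pattern found for 9.51% of all genes. *Homer1*, *Ptgs2*, *Ier2* and *Sik1* were not called. The same 6 genes were called within SH alone, where 28.3% of all genes were, and within EE alone, where 29.8% were.

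*Nptx2* had the largest regional difference. Dorsal libraries ranged from 15.4 to 31.3 CPM and ventral libraries from 6.35 to 14.8 CPM, a fold change of 2.35 (95% interval 2.13 to 2.60; log2 1.23, SE 0.07; edgeR adjusted p = 7.38e-12). *Npas4* was 2.16-fold higher in dorsal DG (1.88 to 2.48; log2 1.11, SE 0.10; edgeR adjusted p = 6.17e-09), with 2.47 to 7.04 CPM in dorsal and 0.877 to 3.82 CPM in ventral libraries. The overlap of the *Npas4* ranges came from housing, since within SH and within EE the regions were apart. *Arc* was 1.44-fold higher (1.31 to 1.59; edgeR adjusted p = 2.57e-06). Within EE, *Arc* overlapped between regions through ventral EE replicate 2 at 153 CPM, which was above the dorsal EE library at 151 CPM. *Pim1* was 1.49-fold (1.32 to 1.70), *Plk2* 1.37-fold (1.28 to 1.46) and *Rgs2* 1.34-fold (1.28 to 1.40) higher in dorsal DG, with edgeR adjusted p values of 1.50e-05, 9.95e-08 and 7.42e-10.

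The remaining 4 genes were near equal or undecided. *Sik1* differed 0.992-fold (95% interval 0.922 to 1.07), *Ptgs2* 1.01-fold (0.908 to 1.12) and *Homer1* 0.970-fold (0.892 to 1.05), so these intervals leave out a fold change of 20% in either direction. *Ier2* was 1.18-fold higher in dorsal DG (1.01 to 1.36), in 7 of the 9 pools. Its edgeR adjusted p was 0.138 by the joint test of both housings. By the test of their mean, which gave the interval, the edgeR adjusted p was 0.0567. In the joint test *Ier2* passed the threshold when EE replicate 3 was left out (edgeR adjusted p = 0.0292). *Sik1* thus rose with EE and gave no regional call, and *Plk2* and *Rgs2* gave regional calls and none with EE. The comparisons by housing and by region use the same libraries and are not independent of each other.

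**Figure D3:**
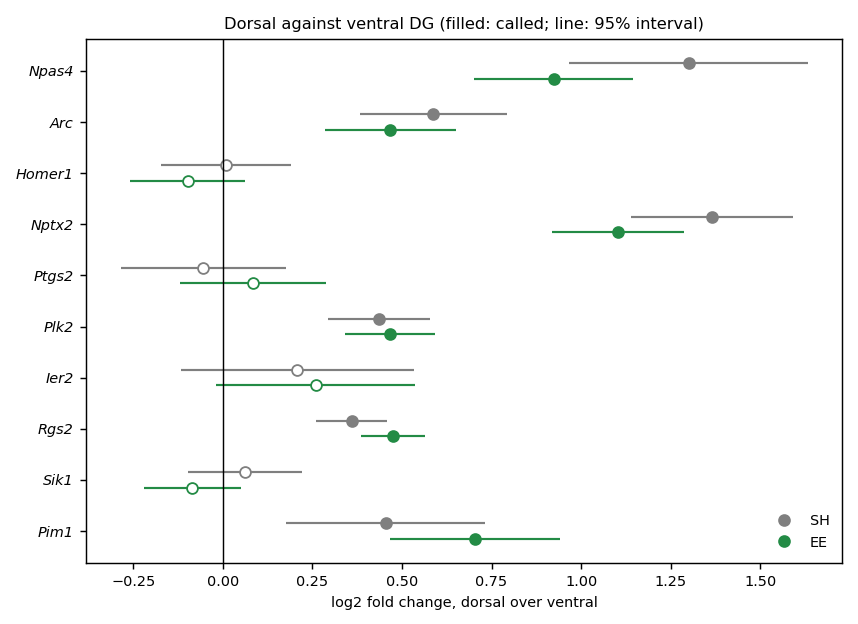
Log2 fold change of dorsal over ventral DG for each gene, within SH and within EE, with 95% intervals from edgeR. Filled points met both limits (FDR below 0.05, change of 20% or more). *Nptx2* and *Npas4* lie farthest right, at 1.36 and 1.30 in SH and 1.10 and 0.92 in EE, and *Homer1*, *Ptgs2*, *Ier2* and *Sik1* are open in both housings.

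Markers of several cell types differed between the regions alongside these genes. Of the granule cell markers 4 of 5 were called higher in dorsal DG (median log2 fold change 0.89), with a summed level of 943 to 1128 CPM in dorsal and 470 to 679 CPM in ventral libraries. All 5 choroid plexus markers were higher in ventral DG, at 385 to 1410 CPM summed against 22.4 to 207 CPM. Habenula and thalamus markers were higher in dorsal DG for 3 of 5 (84.0 to 120 CPM summed against 24.6 to 32.2 CPM). Most of the dorsal sum was *Prkcd*, whose group means were 81.8 (SH) and 82.3 (EE) CPM dorsally, against 16.2 and 16.6 ventrally. *Tcf7l2* and *Tac2* were not called, and the estimate of *Tac2* (log2 -0.20) leaned to the ventral side. Interneuron markers were called higher in ventral DG for 3 of 5 (*Sst*, *Pvalb* and *Vip*). *Gad1* (log2 0.21) and *Gad2* (0.11) were not called and leaned to the dorsal side. Summed interneuron levels overlapped, at 401 to 494 CPM in dorsal and 425 to 514 CPM in ventral libraries. CA pyramidal markers split with 2 toward the dorsal and 3 toward the ventral pole. None of the markers of astrocytes, microglia, oligodendrocytes, endothelium or blood was called. The part of these differences in the regional values of the 10 genes was not tested. In bulk tissue a smaller number of cells of a type and less RNA per cell cannot be told apart.

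Between housings, none of the 45 markers was called in either region by the quasi-likelihood test of edgeR. At an unadjusted p under 0.05 by that test there were 12 in dorsal and 11 in ventral DG. The 4 blood markers (*Hba-a1*, *Hbb-bs*, *Hbb-bt* and *Alas2*) were among them in both regions. Of all 17040 genes tested, 1502 in dorsal and 1292 in ventral DG were under that limit. DESeq2 and the likelihood ratio test of edgeR each called 1 marker in dorsal DG (*Tac2*, of habenula) and none in ventral DG. Summed granule cell markers ranged from 1000 to 1128 CPM in dorsal SH and from 943 to 1043 CPM in dorsal EE. In ventral DG they ranged from 597 to 679 CPM in SH and from 470 to 675 CPM in EE. The median log2 fold change of the 4 blood markers was 0.40 in dorsal and 0.37 in ventral DG. Those of the choroid plexus markers were -1.14 and 0.31. Their part in the EE values of the 10 genes was not tested.

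The groups could also be ordered by level for each gene. *Npas4* was lowest in ventral SH (mean 1.06 ± 0.309 CPM, SD, n = 4), then dorsal SH (2.63 ± 0.167, n = 4), ventral EE (3.34 ± 0.350, n = 5) and dorsal EE (6.34 ± 0.614, n = 5). No library of one of these groups overlapped the next, so ventral DG of EE mice held more *Npas4* than dorsal DG of SH mice. *Nptx2* followed another order, from ventral SH (7.24 ± 0.832 CPM) over ventral EE (13.4 ± 1.49) and dorsal SH (18.6 ± 2.45) to dorsal EE (28.9 ± 2.79), again with no overlap of neighbours. For *Arc*, ventral EE (120 ± 19.0 CPM) and dorsal SH (125 ± 17.6 CPM) were within their spread, between ventral SH (83.0 ± 2.86) and dorsal EE (165 ± 13.2). *Sik1* sorted by housing, with means of 9.59 ± 0.676 and 9.98 ± 0.661 CPM in ventral and dorsal SH and 13.2 ± 1.14 and 12.4 ± 0.556 CPM in ventral and dorsal EE. These orders are descriptions across groups and were not tested as such.

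The 10 genes did not move as a block between libraries of a group. Ventral EE replicate 4 had the highest value of its group for 6 genes (*Npas4*, *Nptx2*, *Ptgs2*, *Ier2*, *Rgs2* and *Pim1*) and the lowest for *Arc*. Dorsal EE replicate 3 was lowest of its group for 5 genes (*Npas4*, *Arc*, *Ier2*, *Rgs2* and *Sik1*) and highest for *Nptx2*. *Ptgs2* was lowest in the library numbered 2 of all 4 groups, *Homer1* and *Plk2* were lowest there in both dorsal groups, and *Rgs2* was highest there in 3 of the 4 groups. The libraries numbered 2 also had high shares of fragments assigned to no gene. These were 39.5% (SH) and 38.6% (EE) in dorsal and 37.8% (SH) and 40.9% (EE) in ventral DG. The range over 18 libraries was 32.6% to 40.9%, and ventral EE replicate 1 (39.4%) and ventral SH replicate 1 (37.8%) were high as well. The part of this share in the values was not tested. An alternative chosen after seeing the data left out the 4 libraries numbered 2. In it *Npas4*, *Arc*, *Nptx2* and *Ptgs2* (log2 0.28, edgeR adjusted p = 0.0150) were called in dorsal DG and *Sik1* was not (edgeR adjusted p = 0.129). In ventral DG the same 4 genes as before were called.

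**Figure D4:**
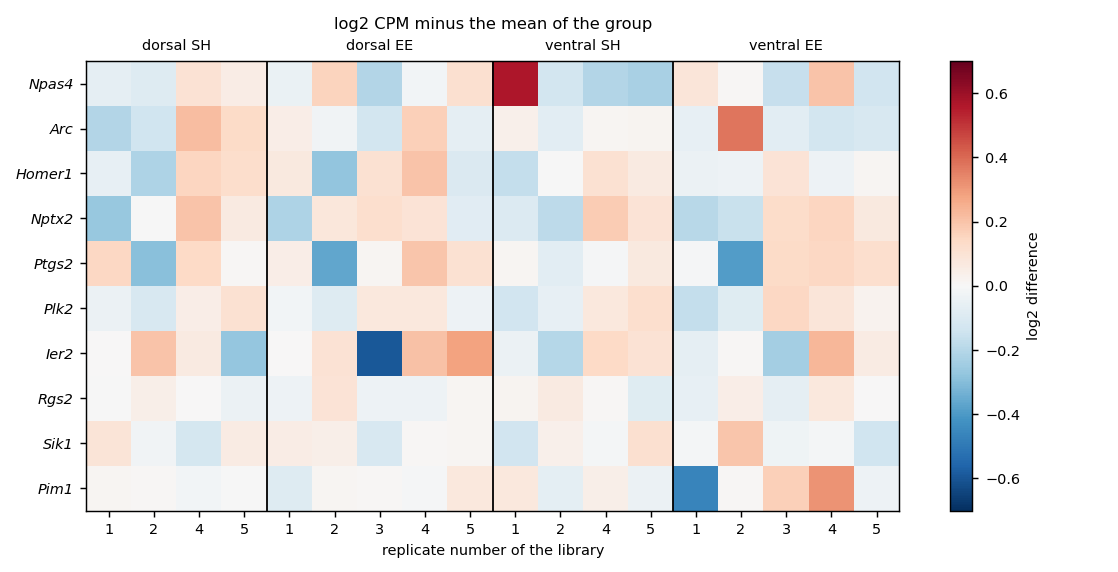
Log2 CPM of each gene in each library minus the mean of its group, for the 18 libraries by group and replicate number (red above, blue below the group mean). *Npas4* in ventral SH replicate 1 (0.56) and *Arc* in ventral EE replicate 2 (0.37) stand above their groups, *Ier2* in dorsal EE replicate 3 (-0.59) stands below, and *Ptgs2* is below its mean in all 4 libraries numbered 2.

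The list was set beside 40 other activity-induced genes, all of which were tested. In dorsal DG 5 of them rose with EE and none fell, and among the called genes the largest differences were those of *Arl4d*, a small GTPase (log2 0.56, SE 0.10), *Rgs4*, a relative of *Rgs2* (0.47, SE 0.06), and *Sorcs3*, a sorting receptor (0.41, SE 0.09). In ventral DG 3 of the 40 rose and none fell: *Fosl2*, a member of the AP-1 family (0.43, SE 0.06), *Sgk1*, a glucocorticoid-regulated kinase (0.39, SE 0.07), and *Rgs4* (0.29, SE 0.06). *Bdnf*, a growth factor gene under the control of activity, was named after its values were seen, with 0.17 (edgeR adjusted p = 0.658) in dorsal and 0.14 (edgeR adjusted p = 0.802) in ventral DG. Among all genes tested, 0.387% were called upward with EE in dorsal and 0.182% in ventral DG. The median log2 fold change of the 40 was 0.17 in dorsal and 0.22 in ventral DG. Between regions 15 of the 40 were called toward the dorsal and 4 toward the ventral pole, where 15% and 15.9% of all genes were. The largest called differences were those of *Inhba* (1.53, SE 0.11), *Arl4d* (1.10, SE 0.08) and *Ptger4* (-1.04, SE 0.13). A list of 13 AP-1, Egr and Nr4a genes did not hold *Fosl2*, which was also called in dorsal DG (0.38, SE 0.06). Of this list 12 were tested, and EE raised 3 in dorsal (*Fos* 0.76, *Fosb* 0.67, *Junb* 0.33) and 5 in ventral DG, with the largest values for *Fos* (1.26), *Fosb* (1.05) and *Nr4a1* (0.61).

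The genes with profiles most like *Npas4* were found by the root mean square difference of centred log2 CPM over the 18 libraries, restricted to 12201 genes that exceeded a TPM of 1 in 3 or more libraries. They were *Penk* (0.329), *Fos* (0.396), *Nptx2* (0.422), *Slc38a5* (0.439) and *Arl4d* (0.488). *Penk*, which encodes proenkephalin, rose with EE by 1.35 in dorsal and 1.03 in ventral DG on the log2 scale and was higher in dorsal DG by 1.01. For *Arc* the nearest were *Apln* (0.164), *Nr4a1* (0.170), *Tnfrsf12a* (0.178), *Csrnp1* (0.179) and *Car7* (0.183). Of these 5, *Nr4a1* alone was called for EE, in ventral DG. Likeness over the same 18 libraries includes whatever those libraries share, also the differences between the groups. The EE and regional values of these genes, *Penk* among them, thus follow in part from how they were picked.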

How the data were processed

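RNA-seq libraries of dorsal and ventral DG were grouped by region and housing from the labels, with 18 of 20 libraries used. Per the processing notes the authors used Trim Galore 0.4.0, STAR 2.5.1b and RSEM 1.2.30, on mm10. The stranded gene counts deposited by the authors are not normalized, and reads that map to several places are left out of them. The expected counts deposited by the authors share such reads among genes, and were rounded for use as an alternative. TPM deposited by the authors is scaled by transcript length and library total, and FPKM deposited by the authors beside it was not used in the results. CPM after TMM was the main scale. TPM served to order genes by level, as a filter for the profile search and for one alternative, and as a second scale for the direction of EE differences. Fragments assigned to no gene, 32.6% to 40.9% per library, were kept out of library sizes. Symbols came from Gencode M21 (GRCm38), which named 45968 of 46480 genes.

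The 10 genes and the other lists were chosen with earlier results of these data known. The 17040 genes that exceeded 10 counts in 2 or more libraries were fitted in one model of 4 groups with edgeR 4.0.16 in R 4.3.3 (TMM, quasi-likelihood test, Benjamini-Hochberg adjustment). The regional test took the dorsal to ventral differences in SH and EE together, with their mean as log2 fold change. SE was the size of the log2 fold change over the root of F, and 95% intervals from the t distribution. For the regional comparison SE and intervals came from a separate test of the mean, and p values from the joint test. All 10 genes are named, with at most 3 called genes per comparison of the other lists, those with the largest change, and the 5 genes most like *Npas4* and *Arc*. The procedure was tested on simulated data. No pair of libraries within a group was identical, and all 32 pairs differed by more than sampling noise (chi-square per degree of freedom 2.77 or more). Depth was near equal, and the low counts of *Npas4*, *Pim1* and *Ier2* limit their precision most. The dorsal and ventral libraries of the same number and housing were taken as one pool. Their deviations from group means correlated by -0.0840 to 0.189 over 9 pools. The labels do not say whether replicates were separate cohorts, so p values measure the spread between these pools. Alternatives were the likelihood ratio test, DESeq2 1.42.0, limma 3.58.1 with the pool correlation estimated, RLE size factors, other filters, expected or unstranded counts, all 20 libraries, the replicate block, each region alone, and leaving out each replicate. Tables of DNA methylation were not analysed here.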

Additional observations from a re-analysis of the deposited data

Results flagged for a closer look

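In each group of 4 or 5 libraries the gap between an extreme library and its neighbour was compared with the whole range of the group (Dixon's test). This was done for 10 genes in 4 groups, and chance alone would set apart about 1 in 20 of the 40 cases. A library stood apart in 3 of them. *Npas4* in ventral SH replicate 1 was high, at 1.52 CPM where the other 3 libraries ranged from 0.877 to 0.939 CPM. *Arc* in ventral EE replicate 2 was high, at 153 CPM where the others ranged from 109 to 114 CPM. *Sik1* in dorsal EE replicate 3 was low, at 11.5 CPM where the others ranged from 12.5 to 12.9 CPM.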

How the results depend on the processing

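*Npas4* and *Nptx2* kept their calls in every alternative tried for EE in both regions, as did *Sik1* in ventral DG. In dorsal DG the 4 calls became 2 with expected counts, where *Arc* (adjusted p = 0.0571) and *Sik1* (0.0576) missed the threshold in edgeR, and ranged from 2 to 5 when one replicate was left out. In ventral DG they ranged from 3 to 4, between regions from 6 to 7, and the interaction gave none in any. The TPM filter took *Npas4* and *Pim1* out of the regional test, leaving 4 calls. The numbers of EE and SH libraries marked no shared mice in the labels. The study divided siblings between the housings, and which libraries held littermates is not given. Same-numbered libraries had deviations correlated by 0.0815 to 0.175 (mean 0.126), over 0.1 in 7 of 8 pairs, which was not taken as pairing. The mean for dorsal and ventral libraries of one pool was lower, at 0.0827. Whether the numbers mark a shared batch was not tested. With a replicate block, 5 genes were called in dorsal DG (adding *Ptgs2*, log2 0.27, edgeR adjusted p = 0.0192), 4 in ventral DG and 6 between regions, and calls over all genes went from 108 to 172 and from 41 to 87.

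On the CPM scale all sign changes were in values near 0 that were not called, and their cause was not tested. Without one replicate each, *Homer1* for EE in dorsal DG ranged from -0.0091 to 0.12, *Ptgs2* between regions from -0.0066 to 0.047, *Sik1* between regions from -0.047 to 0.0071, and the interaction from -0.0015 to 0.063 for *Plk2* and from -0.061 to 0.18 for *Ier2*. Without the 4 libraries numbered 2, the regional values were 0.013 for *Homer1* and 0.017 for *Sik1*. With all 20 libraries the interaction of *Ier2* was -0.039.

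Calls over all genes for EE in dorsal and ventral DG were 181 and 87 by the likelihood ratio test, 142 and 76 by DESeq2, 147 and 78 with no filter on low counts, and 132 and 25 with each region fitted alone. Without one replicate they ranged from 70 to 109 and from 18 to 50. Of the 5 genes most like *Npas4*, 2 were shared when profiles were scaled to unit variance and 0 on log2(TPM + 1). For *Arc* 3 and 0 were shared. The TPM scale for EE differences, added after seeing the data, gave log2 values below 0 with no test for *Homer1* (-0.21 dorsal, -0.031 ventral), *Plk2* (-0.16 and -0.068), *Rgs2* (-0.20 and -0.14) and ventral *Pim1* (-0.057).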
